A study of Mus musculus with 20 samples.

Results

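The genes described here are the Wnt ligands, their Frizzled and Lrp receptors, the R-spondins, the secreted antagonists, and the nuclear factors and feedback targets of the pathway, followed in whole mouse embryos over 8 stages, with E7.5 (embryonic day 7.5) the youngest and E18.5 the oldest. They were chosen by symbol, as every gene with a symbol of the Wnt, Fzd, Dkk, Sfrp or Rspo families and a short list of named pathway genes (Lrp5, Lrp6, Axin2, Lef1, Tcf7l1, Tcf7l2, Sp5, Nkd1, Notum and Wif1). The rule found 52 of the 18194 genes with a probe set of their own on the array, and 44 of them were bright enough to be tested among 14045 tested genes. Tcf7, also named by the rule, was not analysed here. The symbol Fzd10os met the pattern but belongs to an RNA transcribed opposite to Fzd10, so it is counted apart from the receptors. The 52 were 19 ligands, 12 receptors and co-receptors, 4 R-spondins, 10 antagonists, 3 nuclear factors, 3 feedback genes and targets, and this antisense RNA.

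All samples were wild-type C57BL/6 embryos of mixed sex, free of specific pathogens and collected whole but without the amnion. Each of the 20 samples was total RNA pooled from several embryos and hybridised to a separate Affymetrix Mouse Genome 430 2.0 microarray. There were 3 arrays for each of the 4 stages a day apart (E7.5 to E10.5), and 2 for each of the 4 stages that follow at intervals of 2 days (E12.5 to E18.5). In RNA of whole embryos, fewer cells of a type and less RNA per cell cannot be told apart.

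Wnt proteins are lipid-modified signals that bind a Frizzled receptor together with Lrp5 or Lrp6. In the canonical branch this stabilises beta-catenin, which joins the DNA-binding factors Lef1 and Tcf and switches on targets such as Axin2 and Sp5, while other branches steer cell polarity and movement. R-spondins strengthen the signal by keeping receptors at the cell surface, and Dkk, Sfrp, Wif1 and Notum proteins weaken it outside the cell. In the early embryo Wnt signals are known for forming the primitive streak and extending the body axis, and later for patterning the neural tube, limbs, lung, kidney and skeleton.

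Values are MAS5 signals, given as the deposited level on each array or as mean ± SD over the arrays of a stage (n = 3 to E10.5, n = 2 from E12.5). Changes are differences of log2(signal + 25.9) between stage means with the SE of a limma model of all 20 arrays, and p-values are Benjamini-Hochberg adjusted over all genes tested. A gene was called, and is said to have risen or fallen, at an adjusted p below 0.05 and a change of at least 2-fold on this scale, which understates changes of dim genes. The arrays formed 2 sets. On the 12 up to E10.5 the median signal ranged from 67.2 to 91.1 and the 25th percentile from 18.6 to 28.4. On the 8 from E12.5 the ranges were 156.2 to 177.6 and 40.8 to 53.2. For E12.5 against E10.5, stage and array set cannot be told apart. Comparisons within a set do not cross this boundary. Signals of different probe sets are not on a common scale, so levels are compared between stages and not between genes.

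The promoters of 3 members known as Wnt targets are shown as background to their early courses. At E10.5 against E7.5 Sp5 was called lower, and Axin2 and the antagonist Dkk1 were not called. The windows are the 250 bases before a transcription start listed by RefSeq (build GRCm38.p6), written 5′ to 3′ on the strand of the gene. Capitals mark CTTTGAT or CTTTGAA, which are forms of the core sequence bound by Lef1 and Tcf factors, searched on both strands. Other forms of this core were not searched and are not marked. The Sp5 window lies at chr2:70474673-70474922 (plus strand), with the first motif base 104 bases before the start.
Sp5: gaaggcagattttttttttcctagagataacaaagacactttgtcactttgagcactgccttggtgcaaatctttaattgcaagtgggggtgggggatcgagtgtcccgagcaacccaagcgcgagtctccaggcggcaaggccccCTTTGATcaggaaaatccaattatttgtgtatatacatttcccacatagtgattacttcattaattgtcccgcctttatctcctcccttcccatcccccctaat
The Dkk1 window lies at chr19:30549497-30549746 (minus strand), with the first motif base 117 bases before the start.
Dkk1: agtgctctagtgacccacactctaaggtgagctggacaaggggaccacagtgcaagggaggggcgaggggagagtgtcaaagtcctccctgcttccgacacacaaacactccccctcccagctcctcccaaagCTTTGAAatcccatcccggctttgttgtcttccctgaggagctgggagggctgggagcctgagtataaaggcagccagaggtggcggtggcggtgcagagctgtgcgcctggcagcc
The Axin2 window lies at chr11:108920099-108920348 (plus strand) and holds neither motif. Its start lies 2521 bases inside the annotated gene, so the bases before the outermost start of Axin2 are not shown, while the windows of Sp5 and Dkk1 end where the gene begins.
Axin2: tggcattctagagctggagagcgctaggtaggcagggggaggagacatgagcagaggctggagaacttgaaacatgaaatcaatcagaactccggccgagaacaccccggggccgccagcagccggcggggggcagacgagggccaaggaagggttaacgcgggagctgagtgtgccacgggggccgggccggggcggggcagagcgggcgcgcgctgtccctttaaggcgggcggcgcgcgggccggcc
RefSeq windows were matched for 34 members (41 windows), and 4 of the 41 (9.76%) held a motif, those of Dkk1, Sp5, Wnt11 and Wnt5b. Of all 32851 windows, 2457 (7.48%) held one. A match describes the letters only, its absence says only that they are not in this window, and no result rests on either.

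Of the 7 steps, the first had the largest share of Wnt pathway genes called. At E8.5 against E7.5, 17 of the 44 tested members rose and 2 fell (43.2%), beside 11.2% of all genes tested. Their median change was 0.65 on the log2 scale, against 0.03 for all genes. At E9.5 against E8.5, 5 rose and 3 fell (18.2%, background 4.17%). At E10.5 against E9.5, 1 rose and 1 fell (4.55%, background 3.66%), and with quantile normalization 0 rose and 1 fell. All genes gave 442 higher and 72 lower at this step, and 315 and 102 with quantile normalization. Over E10.5 against E7.5, 17 rose and 2 fell (43.2%, background 23.5%, median 0.54 against 0.11 for all genes). Of all genes 2251 rose and 1052 fell over this span. After scaling by the 75th percentile 14 members rose and 4 fell, beside 1861 and 1449 of all genes, and after quantile normalization 14 rose and 3 fell, beside 1733 and 1160. Some members entered the test only through the stages at which they were bright, so these shares describe the members and were not tested against other genes.

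In the later embryo more members fell than rose over the whole span from E12.5. At E12.5 against E10.5, 5 rose and 0 fell (11.4%, background 12.6%), a share near the background. The split by direction depended on the scaling across the array sets. Members gave 4 higher and 2 lower with quantile normalization and 4 and 1 after scaling by the 75th percentile. All genes gave 1484 higher and 284 lower as deposited, 755 and 540 with quantile normalization, and 931 and 881 after scaling by the 75th percentile. No member was called at E14.5 against E12.5, where limma called 3.65% of all genes. With no minimum fold, 0 members were higher and 5 lower at this step, beside 918 higher and 544 lower of all 14045 genes. Sp5 alone was called in the steps that follow, as 1 of 44 members (2.27%) at each. It was lower at E16.5 against E14.5 (background 3.78%, with 3.6% of all genes higher and 0.178% lower). It was higher at E18.5 against E16.5 (background 4.29%, with 3.52% of all genes higher and 0.776% lower). Over E18.5 against E12.5, 2 rose and 11 fell (29.5%). The background was 21.7%, of which 15.2% of all genes rose and 6.44% fell. The median change was -0.77 for members and -0.09 for all genes.

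**Figure D1:**
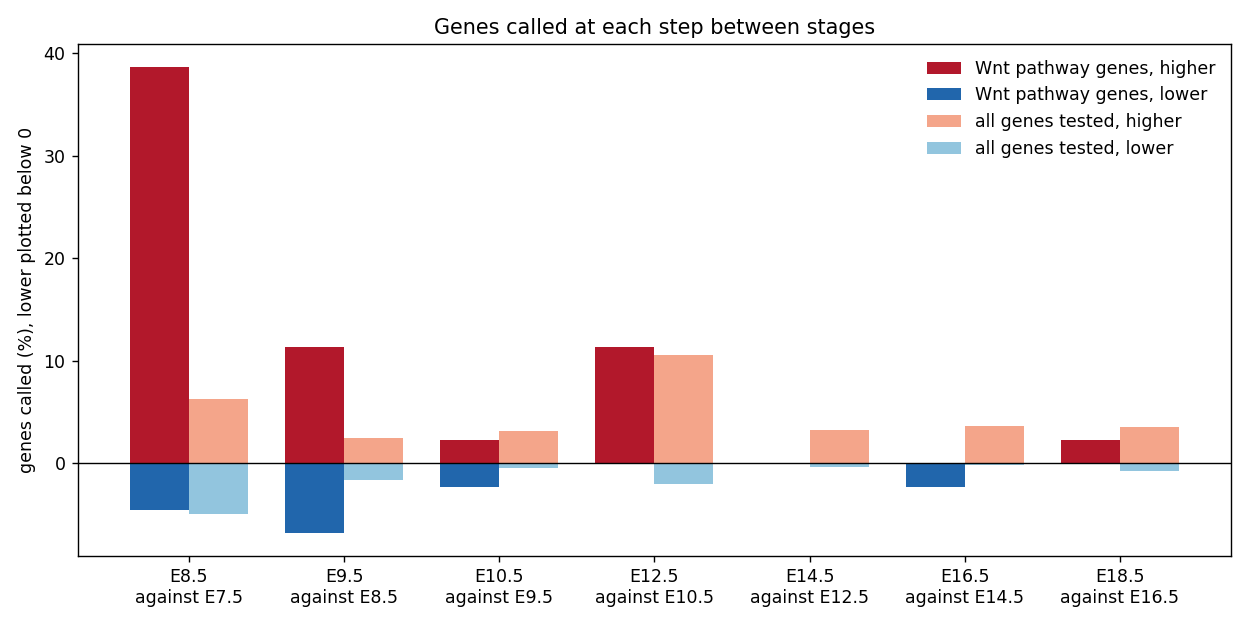
Percent of genes called at each of the 7 steps between stages, for the 44 tested Wnt pathway genes (dark bars, left) and all 14045 tested genes (light bars, right), with genes called lower drawn below 0. The tallest bar is the 17 members that rose at E8.5 against E7.5, and no member bar appears at E14.5 against E12.5.

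Single genes peaked at different times within each set. Among E7.5 to E10.5 the highest mean lay at E7.5 for 9 members, at E8.5 for 16, at E9.5 for 3 and at E10.5 for 16. Among E12.5 to E18.5 it lay at E12.5 for 25 members, at E14.5 for 6, at E16.5 for 5 and at E18.5 for 8. These counts describe the members only, as the peak stages of all genes were not counted. Of the 17 members that rose at E10.5 against E7.5, 7 fell at E18.5 against E12.5, namely Dkk2, Fzd2, Fzd3, Fzd8, Rspo2, Sfrp1 and Wnt1 (41.2%), and Wif1 rose again. Of all 2251 genes that rose in the earlier comparison, 425 (18.9%) fell in the later. Taken from the other side, 63.6% of the 11 members and 47.0% of the 905 genes that fell late had risen early. The 2 comparisons share no arrays.

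**Figure D2:**
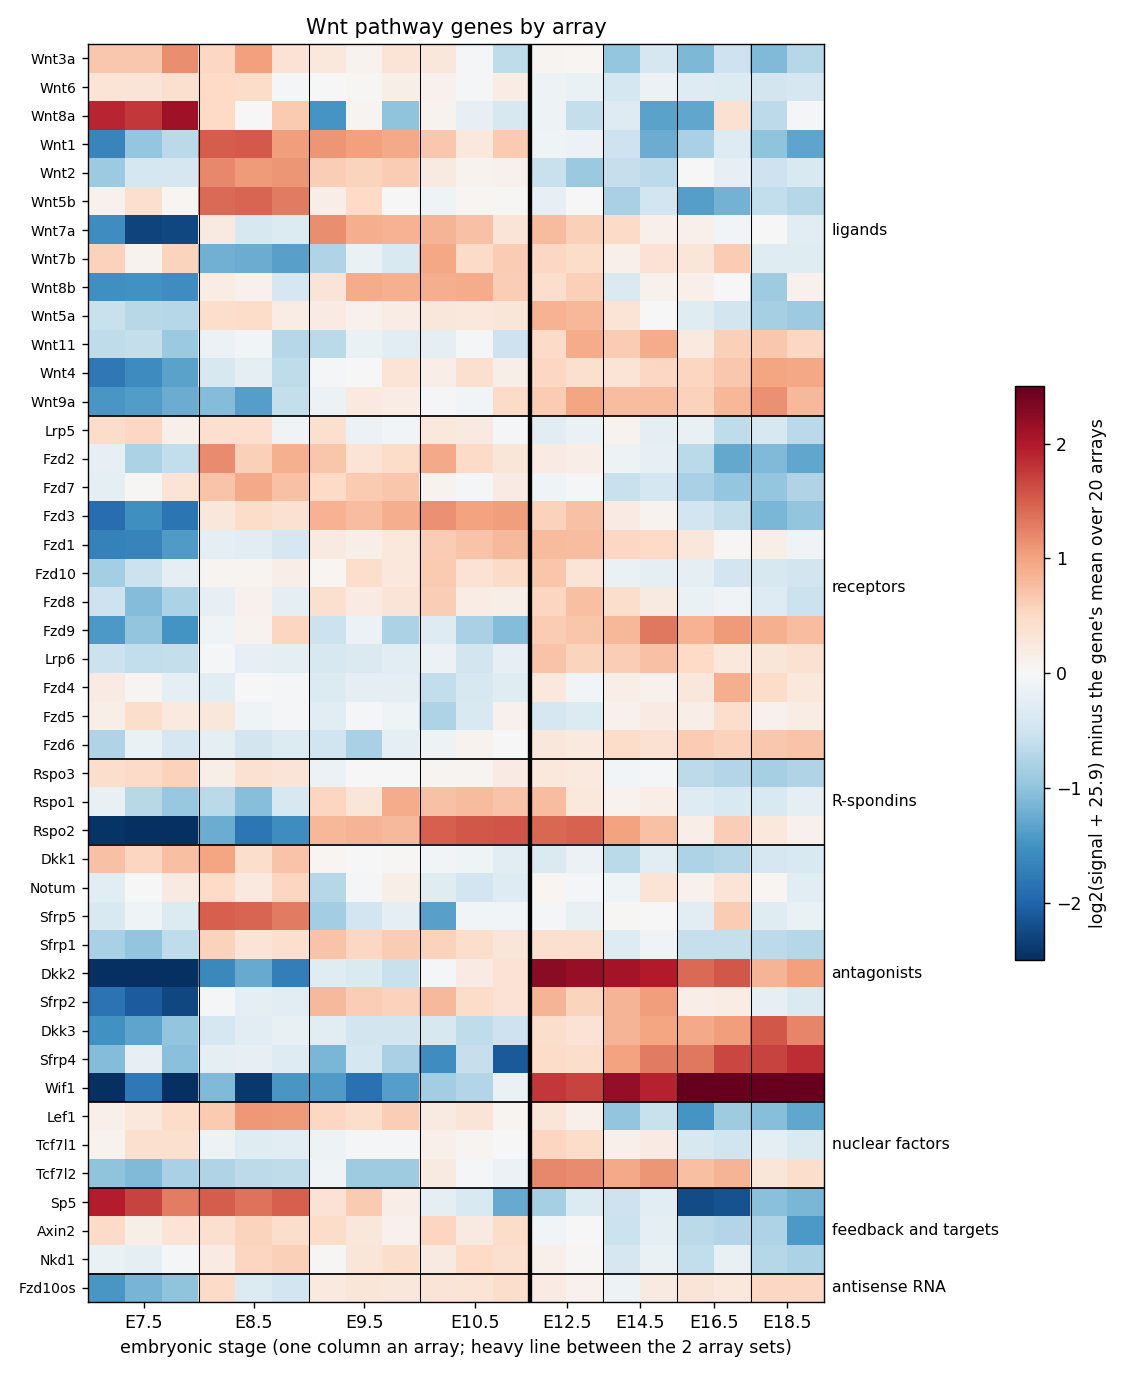
Log2(signal + 25.9) of the 44 tested members on each of the 20 arrays (columns, stages from left to right), centred on the mean of each gene, with red above and blue below it. Members are grouped by role and ordered by the stage of their highest mean, and the heavy line separates the 2 array sets. Wnt8a and Sp5 are reddest at E7.5, Wnt5b and Sfrp5 at E8.5, and Wif1 from E16.5.

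Of the 13 tested ligands, 5 rose (Wnt1, Wnt4, Wnt7a, Wnt8b and Wnt9a) and Wnt8a fell at E10.5 against E7.5. Wnt8a is a signal of the posterior epiblast and primitive streak. It gave 59.1, 43.0 and 34.4 at E10.5, against 272, 247 and 321 at E7.5. All arrays of E10.5 lay below all of E7.5. Wnt8a had fallen by 1.55 ± 0.42 at E8.5 against E7.5 (limma adjusted p = 0.006) and was lower by 2.11 ± 0.42 over the whole span (log2 change -2.11, adjusted p = 0.00022). With a pseudocount 4 times smaller the E8.5 change of Wnt8a was -1.76 with an adjusted p of 0.053. Primitive streak markers moved with it. Of the 6 tested, 4 fell and 1 rose, and their summed signal was 623 to 876 at E10.5, against 2093 to 2537 at E7.5. Their part in the result was not tested.

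Wnt3a, which sustains the tail bud and somite formation, was not called in either long comparison. It averaged 257 ± 58.7 at E7.5, 221 ± 62.3 at E8.5, 158 ± 16.9 at E9.5 and 121 ± 45.2 at E10.5. Its change at E10.5 against E7.5 was -0.97 ± 0.26 (adjusted p = 0.0032, 95% interval -1.52 to -0.43), short of 2-fold, although the arrays did not overlap. It averaged 57.7 ± 15.9 at E18.5, against 137 ± 1.22 at E12.5, with the same change of -0.97 (interval -1.64 to -0.31).

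The ligands of the nervous system appeared early. Wnt1, which patterns the midbrain and the dorsal neural tube, had the largest rise of any member at E8.5 against E7.5, with 234, 239 and 163 at E8.5 and 3.14, 20.7 and 31.2 at E7.5. The lowest array of E8.5 was far above the highest of E7.5. The log2 change was 2.47 ± 0.28 (adjusted p = 5.9e-07). After E8.5 its mean was 159 ± 9.66 at E9.5 and 107 ± 20.2 at E10.5, neither step called. At E18.5 against E12.5 Wnt1 fell by 1.04 ± 0.34 (adjusted p = 0.015), with 19.2 and 10.6 at E18.5 and 59.0 and 56.3 at E12.5. The late signals lay near or below the 25th percentile of their arrays, and the call ended without array 1 or 2 of E12.5 (adjusted p = 0.067 and 0.056) or array 2 of E18.5 (0.1).

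Wnt7a, a ligand of the dorsal limb ectoderm and of neural tissue, gave 268, 245 and 178 at E10.5, against 29.7, 6.85 and 7.85 at E7.5. It rose by 2.68 ± 0.23 (adjusted p = 5e-09), and it rose at both of the first steps, by 1.87 ± 0.23 at E8.5 and 1.15 ± 0.23 at E9.5. Its mean over 3 probe sets, one of which stayed at or below 31.5, gave 0.64 and 0.47 for these steps and no call. Wnt8b, a ligand of the forebrain, gave 127, 130 and 100 at E10.5, against 2.3, 2.82 and 1.99 at E7.5, all below the 25th percentile. Its log2 change was 2.35 ± 0.28 (adjusted p = 4.8e-07). Neural progenitor markers rose in 7 of 7 tested genes in the same comparison (summed signal 13304 to 14500 at E10.5 and 2295 to 2981 at E7.5), and neuron markers in 6 of 6 (11203 to 11753 and 746 to 793). Their part in these rises was not tested.

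Wnt4 and Wnt9a rose early and were not called lower at any later step. Wnt4, a ligand of kidney and gonad development, gave 345, 413 and 341 at E10.5, against 70.9, 85.6 and 105 at E7.5, without overlap. Its log2 change was 1.80 ± 0.15, a rise (adjusted p = 2.8e-09). Its mean was 630 ± 5.47 at E18.5, against 433 ± 27.1 at E12.5, a change of 0.52 ± 0.19 within the later set (interval 0.13 to 0.91) that was not called. Wnt9a, known from forming joints, rose by 1.12 ± 0.22 at E9.5 against E8.5 and by 1.49 ± 0.22 over E10.5 against E7.5 (adjusted p = 0.0013 and 9.7e-06). Without array 2 of E8.5 the step was 0.94 and no longer 2-fold.

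Wnt7b had a dip. This ligand is required for the fusion of chorion and allantois in the placenta and later acts in the lung. It gave 169, 165 and 149 at E8.5, against 647, 452 and 633 at E7.5, a fall of 1.68 ± 0.17 on the log2 scale (adjusted p = 8.4e-08). No array of E8.5 came near those of E7.5. At E9.5 the signal was 243, 377 and 320, a change of 0.84 ± 0.17 that was not called. At E10.5 it was 857, 606 and 677, a rise of 1.13 ± 0.17 over E9.5 (adjusted p = 6.6e-05). Without array 1 of E9.5 or array 1 of E10.5 this rise was 0.97 and 0.99, just under 2-fold. The second probe set of Wnt7b had means of 259, 69.7, 130.0 and 259 from E7.5 to E10.5.

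E10.5 and E7.5 overlapped for Wnt7b, and the change between them was 0.30 ± 0.17 (adjusted p = 0.13, interval -0.05 to 0.64). The dip at E8.5 went with lower signals of extraembryonic markers. All 5 tested trophoblast markers fell at E8.5 against E7.5 (summed signal 824 to 1098 at E8.5 and 6682 to 8692 at E7.5), and 9 of 10 visceral and yolk sac endoderm markers fell (35582 to 40107 and 116905 to 128813). The trophoblast sum was still 715 to 889 at E10.5, when Wnt7b was high again. The part of these tissues in the dip was not tested.

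Wnt5b and Wnt2 had their highest signals of the earlier set at E8.5. Wnt5b, a ligand of the noncanonical branch, gave 488, 503 and 443 at E8.5, against 181, 232 and 172 at E7.5. It rose by 1.2 ± 0.18 (adjusted p = 1.5e-05) and then fell by 1.17 ± 0.18 at E9.5 (adjusted p = 7.1e-05), where the arrays gave 188, 246 and 167. The E8.5 arrays stood above all others, while those of E7.5 and E9.5 overlapped. This probe set may cross-hybridise, and the other probe set of Wnt5b had means of 113, 392, 132 and 100 from E7.5 to E10.5. Wnt2, a ligand of the allantois, heart and lung, rose by 1.72 ± 0.15 at E8.5 against E7.5 (adjusted p = 1.3e-08) to 621 ± 31.2, against 173 ± 35.3. It gave 430.0, 408 and 434 at E9.5 and 321, 290.0 and 296 at E10.5, steps of less than 2-fold. The summed signal of 5 genes listed as maternal decidua markers was highest at E8.5 in this set. It was 1669 to 2388 at E7.5, 2822 to 4319 at E8.5 and 1473 to 2021 at E9.5. The list is not specific to decidua, as its sum reached 18741 to 19561 at E18.5, with Dcn at 11460 ± 86.5 and Cryab at 6746 ± 702. Of the 5, Dcn and Cryab rose at E8.5 against E7.5, and Prl8a2, the decidual prolactin, and Bmp2 fell at E9.5 against E8.5 while Hoxa10 rose. Prl8a2 averaged 956 ± 308 at E7.5, 1486 ± 1029 at E8.5 and 33.6 ± 17.4 at E9.5, and was not called at E8.5 against E7.5. The part of decidua in these peaks was not tested.

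Wnt5a, the main noncanonical ligand of outgrowing limbs, face and tail, was the ligand with the largest fall late in the series. It gave 452 and 429 at E18.5, against 1514 and 1487 at E12.5. It fell by 1.71 ± 0.12 on the log2 scale (adjusted p = 6.8e-10), with means of 930 ± 164 at E14.5 and 626 ± 46.3 at E16.5 between. Each of these stages lay below the one before it without overlap of arrays. At E8.5 against E7.5 Wnt5a rose by 1.02 ± 0.10, with 1130, 1142 and 934 at E8.5 and 552, 499 and 489 at E7.5. That rise was 0.99, 0.98 and 0.97, just under 2-fold, without array 3 of E7.5, array 1 of E8.5 and array 2 of E8.5.

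Wnt6 and Wnt11 were called at no step. Wnt6 ranged from 253 ± 6.33 at E18.5 to 462 ± 14.3 at E7.5. Wnt11 was 384 ± 86.9 at E12.5, against 183 ± 34.7 at E10.5, a change of 0.97 ± 0.23 across the array sets. Wnt2b, Wnt3, Wnt9b, Wnt10a, Wnt10b and Wnt16 were too dim to be tested, as were Rspo4 and Dkk4. Their highest single arrays ran from 40.8 for Rspo4 to 144 for Wnt10a.

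**Figure D3:**
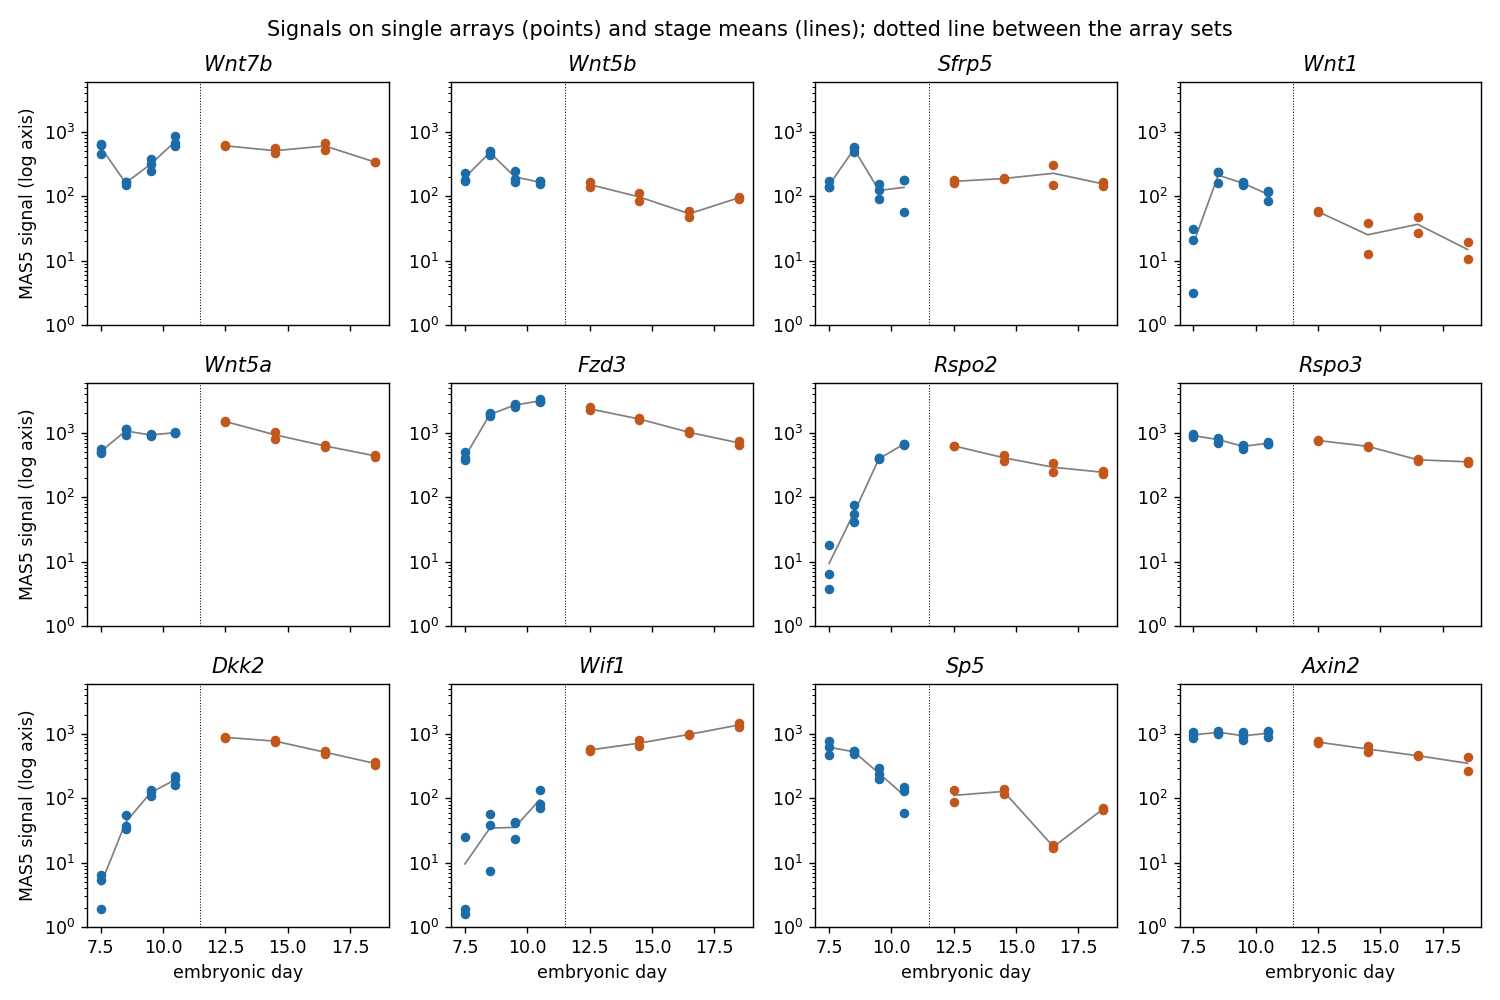
MAS5 signal on each array (points, log axis) against embryonic day for 12 members, with lines through the stage means and a dotted line between the 2 array sets (blue before it, orange after it). Wnt7b dips at E8.5, Wnt5b and Sfrp5 peak there, Rspo2 and Dkk2 climb from signals below 20 at E7.5, and Sp5 has its lowest arrays, 16.8 and 18.7, at E16.5.

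Of the 12 receptor genes, 5 rose at E10.5 against E7.5 (Fzd1, Fzd2, Fzd3, Fzd8 and Fzd10) and 0 fell. Fzd3, a receptor known for guiding axons and for planar polarity, gave 3299, 2988 and 3106 at E10.5, against 376, 497 and 401 at E7.5. The groups were far apart, with a log2 change of 2.82 ± 0.09 (adjusted p = 1.8e-15), or 7.05-fold. Most of it came at the first step, with 1922 ± 120.0 at E8.5. Fzd1 gave 1960, 2071 and 2223 at E10.5, against 370, 374 and 453 at E7.5, again without overlap. It rose by 2.32 ± 0.09 (adjusted p = 3.6e-14).

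The rises of Fzd2, Fzd8 and Fzd10 were close to 2-fold. Fzd2, a receptor of mesenchyme, gave 4332, 3115 and 2775 at E10.5, against 1930, 1290 and 1457 at E7.5, a log2 change of 1.11 ± 0.18 (adjusted p = 2e-05). Fzd8, a receptor of the anterior embryo, gave 609, 443 and 434 at E10.5, against 263, 170 and 214 at E7.5, a change of 1.11 ± 0.16. The groups did not overlap for either gene, but the changes dropped under 2-fold without array 1 of E10.5 (0.92 and 0.96) or array 2 of E7.5 (0.99 and 0.97). Fzd10 changed by 1.05 ± 0.16, and by 0.97 without array 1 of E10.5 or 0.9 without array 1 of E7.5. With quantile normalization Fzd8 and Fzd10 changed by 0.74 and 0.68.

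The antisense RNA Fzd10os gave 202, 206 and 221 at E10.5, against 40.3, 55.8 and 65.0 at E7.5, and rose by 1.58 ± 0.21 (adjusted p = 2.2e-06). Its rise at E8.5 alone, 1.09 ± 0.21, was 0.79 without array 1 of E8.5, the brightest, and 0.96 without array 1 of E7.5. Fzd10 and Fzd10os are neighbours, and each was read by its own probe sets. In the later set their changes had opposite signs. Fzd10 was 238 ± 6.06 at E18.5 and 487 ± 88.0 at E12.5, and Fzd10os was 235 ± 0.723 and 176 ± 10. Neither change was called (-0.95 ± 0.19 and 0.37 ± 0.26), and the difference between the genes was not tested.

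Late in the series 3 receptors fell at E18.5 against E12.5 and 0 rose. Fzd3 gave 658 and 736 at E18.5, against 2224 and 2492 at E12.5, a fall of 1.72 ± 0.11 (adjusted p = 2.5e-10). Fzd2 gave 1025 and 898 at E18.5, against 2603 and 2531 at E12.5, a fall of 1.40 ± 0.22 (adjusted p = 2e-05). Both genes stood clear of overlap. Fzd8 fell by 1.07 ± 0.19 (adjusted p = 9.8e-05), with 307 and 260 at E18.5 and 573 and 677 at E12.5, and its change was -0.96 without array 2 of either stage.

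Other receptors had other courses. Fzd6, a polarity receptor of the epidermis, had means of 553 ± 11.9, 623 ± 27.0, 710 ± 23.2 and 758 ± 17.7 from E12.5 to E18.5, a change of 0.44 ± 0.18 that was not called (interval 0.07 to 0.81). Fzd9 rose by 1.49 ± 0.25 at E8.5 against E7.5, with 107, 124 and 180 at E8.5 and 26.6, 45.6 and 24.0 at E7.5. It was higher again at E12.5 against E10.5 (1.40 ± 0.27), a change that crosses the array sets and was 0.74 with an adjusted p of 0.052 after quantile normalization. Fzd7, a receptor of the early epiblast and mesoderm, averaged 2247 ± 220.0 at E8.5 and 1332 ± 272 at E7.5, a change of 0.76 ± 0.12 that was short of 2-fold.

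The co-receptors Lrp5 and Lrp6 were called in none of the 9 comparisons. Lrp5 changed by -0.21 ± 0.23 at E10.5 against E7.5 (interval -0.70 to 0.28) and Lrp6 by 0.31 ± 0.10 (interval 0.11 to 0.52). Across the array sets the 2 probe sets of Lrp6 disagreed. The brighter had a mean of 1409 at E12.5 and 747 at E10.5, and the other 319 at E12.5 and 340.0 at E10.5. Fzd4 and Fzd5 were also not called in either long comparison, with changes of -0.46 and -0.63 early and 0.27 and 0.52 late.

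The R-spondins held the largest rise of any member. Rspo2, which acts in limb, lung and face development, gave 646, 676 and 680.0 at E10.5, against 17.9, 6.53 and 3.7 at E7.5. The E7.5 arrays were below the 25th percentile and the E10.5 arrays agreed closely. The log2 change was 4.32 ± 0.18 (adjusted p = 5.8e-14), 20-fold on this scale. The rise was built up over 2 steps, 1.24 ± 0.18 at E8.5 and 2.36 ± 0.18 at E9.5, where the arrays gave 400.0, 402 and 389. Late in the series Rspo2 gave 260.0 and 229 at E18.5, against 619 and 636 at E12.5, a fall of 1.28 ± 0.22 (adjusted p = 6.7e-05).

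A dim second probe set of Rspo2 had means of 44.1, 32.4, 15.2 and 63.4 from E7.5 to E10.5. With the mean of both probe sets the changes at E8.5, at E9.5 and at E18.5 against E12.5 were 0.49, 0.93 and -0.89 and no longer called, while the rise at E10.5 against E7.5 was still called. Rspo1, known from sex determination of the gonad, gave 298, 311 and 296 at E10.5, against 145, 94.5 and 75.1 at E7.5. It rose by 1.36 ± 0.22 (adjusted p = 2.3e-05), nearly all of it at E9.5 against E8.5 (1.30 ± 0.22), and by 0.91 with quantile normalization.

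Rspo3, needed for the vessels of the placenta, took another course. It gave 670.0, 672 and 732 at E10.5, against 868, 891 and 962 at E7.5, a change of -0.38 ± 0.09 (adjusted p = 0.0015, interval -0.57 to -0.19) that stayed under 2-fold. Among the 4 stages of the earlier set its highest mean was at E7.5. It gave 345 and 366 at E18.5, against 766 and 755 at E12.5, and fell by 1.05 ± 0.11 (adjusted p = 2e-07). Scaling by the 75th percentile brought this to -0.99, and the mean of its 2 probe sets to -0.61.

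Of the 9 tested antagonists, 4 rose at E10.5 against E7.5 (Dkk2, Sfrp1, Sfrp2 and Wif1) and 0 fell. Dkk2, a ligand of Lrp5 and Lrp6 that can block them, gave 163, 199 and 225 at E10.5, against 1.91, 6.39 and 5.42 at E7.5. It rose by 2.86 ± 0.17 (adjusted p = 1.5e-11), through rises of 1.15 ± 0.17 at E8.5 and 1.13 ± 0.17 at E9.5. Sfrp2, a secreted protein with a Frizzled-like domain that binds Wnts, gave 2701, 2100.0 and 1959 at E10.5, against 405, 341 and 292 at E7.5. It rose by 2.61 ± 0.12 (adjusted p = 4.4e-13). Sfrp1, of the same family, rose by 1.24 ± 0.10 (adjusted p = 1.6e-09), with 1751, 1605 and 1444 at E10.5 and 658, 581 and 747 at E7.5. None of these groups overlapped. Mesenchyme and matrix markers rose in 7 of 7 tested genes at E10.5 against E7.5 (summed signal 29060 to 31498 at E10.5 and 774 to 989 at E7.5), and in 7 of 7 already at E8.5 (5483 to 6321). Their part in the early rises of antagonists, R-spondins and receptors was not tested.

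Sfrp5 was high at E8.5. This antagonist is known from the anterior visceral endoderm and the foregut. It gave 573, 553 and 494 at E8.5, against 138, 170.0 and 141 at E7.5, and rose by 1.69 ± 0.28 (adjusted p = 6.7e-05). At E9.5 it gave 90.2, 127 and 153 and fell by 1.94 ± 0.28 (adjusted p = 4.8e-05). All 3 arrays of E8.5 were above every other array of the series, whose highest value was 305 at E16.5. A second probe set had means of 76.1, 379, 92.9 and 65.1 from E7.5 to E10.5. Visceral endoderm markers as a list had lower signals at E8.5 than at E7.5, as given above for Wnt7b. The sum of the decidua list, which is not specific to decidua, was the highest of the earlier set at E8.5, as given for Wnt5b. The part of these tissues in the Sfrp5 peak was not tested.

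Dkk1, an antagonist known from head formation whose promoter is shown above, was called at no step. It averaged 638 ± 55.6 at E7.5, 663 ± 132 at E8.5, 396 ± 9.49 at E9.5 and 349 ± 25.7 at E10.5. The change at E10.5 against E7.5 was -0.82 ± 0.14 (adjusted p = 4.2e-05, interval -1.12 to -0.53), without overlap but under 2-fold. In the later set Dkk1 changed by -0.14 ± 0.17 (interval -0.50 to 0.22). Notum, an enzyme that removes the lipid from Wnt proteins, was not called in either comparison (-0.35 ± 0.20 early and -0.11 ± 0.24 late).

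Wif1 and Sfrp4 were the 2 members that rose late. Wif1, a secreted protein that binds Wnts and is known from cartilage and bone surfaces, gave 1482 and 1274 at E18.5, against 578 and 548 at E12.5. It rose by 1.25 ± 0.36 (adjusted p = 0.0066), and by 1.14 with an adjusted p of 0.052 without array 1 of E18.5. With a pseudocount 4 times smaller the change was 1.28 with an adjusted p of 0.093. Wif1 had already risen at E10.5 against E7.5 by 1.80 ± 0.30 (adjusted p = 2.8e-05), with 71.0, 80.4 and 133 at E10.5 and 1.59, 25.3 and 1.9 at E7.5.

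Sfrp4, known from bone, gave 625 and 696 at E18.5, against 251 and 249 at E12.5, and rose by 1.32 ± 0.37 (adjusted p = 0.0049). Its mean was higher at each later stage, 426 ± 66.5 at E14.5 and 548 ± 94.5 at E16.5. Dkk3, a divergent member of its family, was 780.0 ± 133 at E18.5 and 375 ± 13.6 at E12.5, a change of 1.00 ± 0.18 that was just short of the call. In the same comparison 4 of 4 tested bone markers rose (summed signal 6495 to 6961 at E18.5 and 350.0 to 412 at E12.5), as did 4 of 7 mesenchyme and matrix markers, with 1 lower (120477 to 127875 and 48167 to 50692). The part of these tissues in the rises was not tested.

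Dkk2 and Sfrp1 fell in the later set. Dkk2 gave 328 and 369 at E18.5, against 906 and 863 at E12.5, a fall of 1.29 ± 0.21 (adjusted p = 3.2e-05). Sfrp1 gave 737 and 702 at E18.5, against 1554 and 1547 at E12.5, a fall of 1.08 ± 0.12 (adjusted p = 4.2e-07). Arrays did not overlap for either. Sfrp2 ended just short of a call, with 1254 ± 95.1 at E18.5 and 2514 ± 351 at E12.5 (-0.98 ± 0.15, adjusted p = 1.8e-05).

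The 5 members higher at E12.5 against E10.5 were Dkk2, Fzd9, Sfrp4, Tcf7l2 and Wif1 (11.4% of those tested, beside 10.6% of all genes higher). Stage and array set cannot be told apart at this step. Wif1 gave 578 and 548 at E12.5, against 71.0, 80.4 and 133 at E10.5, a change of 2.32 ± 0.33 (adjusted p = 1.2e-05). Dkk2 changed by 2.05 ± 0.19 and Sfrp4 by 1.86 ± 0.33 (adjusted p = 8.1e-08 and 0.00014). All 3 groups of E12.5 arrays stood above those of E10.5. The median change of all genes at this step was 0.12, and -0.11 both after quantile normalization and after scaling by the 75th percentile.

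None of the 3 nuclear factors was called at E10.5 against E7.5. Lef1, the partner of beta-catenin that is itself a Wnt target, gave 702, 752 and 621 at E10.5, against 647, 714 and 830.0 at E7.5. The groups overlapped, with a change of -0.07 ± 0.16 (interval -0.40 to 0.26). Between them it was 952, 1288 and 1278 at E8.5, above all arrays of E7.5 but by less than 2-fold (0.66 ± 0.16, adjusted p = 0.0023). In the later set Lef1 gave 270.0 and 226 at E18.5, against 735 and 649 at E12.5, and fell by 1.39 ± 0.19 (adjusted p = 4.9e-06). Most of this lay between E12.5 and E14.5 (342 ± 76.6 at E14.5, -0.98 ± 0.19, not called).

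Tcf7l1, mostly a repressor of the pathway, and Tcf7l2 differed in their early course. Tcf7l1 was 905 ± 33.0 at E10.5 and 1066 ± 136 at E7.5, with overlapping arrays and a change of -0.22 ± 0.09. Tcf7l2 gave 485, 400.0 and 371 at E10.5 and 194, 179 and 226 at E7.5, a change of 0.98 ± 0.17 (adjusted p = 4.8e-05) just under 2-fold. Tcf7l2 was higher at E12.5 against E10.5 (1.19 ± 0.19), a step that crosses the array sets and was 0.94 after scaling by the 75th percentile. From E12.5 both had lower means at E18.5, with changes of -0.80 ± 0.11 for Tcf7l1 and -0.83 ± 0.21 for Tcf7l2, and neither was called. The other probe set of Tcf7l1 had means of 852 at E12.5 and 313 at E18.5, a larger fall that was not tested.

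Of the 3 feedback genes and targets, Sp5 fell at E10.5 against E7.5, and Axin2 and Nkd1 were not called. Sp5 is a zinc finger repressor switched on by Wnt signals in the streak and tail bud, and the motif in its promoter is shown above. It gave 148, 129 and 58.2 at E10.5, against 768, 624 and 468 at E7.5. The ranges were far apart, and Sp5 fell by 2.27 ± 0.24 (log2 change -2.27, adjusted p = 8.5e-08), or 4.83-fold. The steps at E9.5 and E10.5 brought falls of 1.05 ± 0.24 and 1.02 ± 0.24. Each was close to 2-fold, at -0.94 without array 3 of E9.5 for the earlier and at -0.89 without array 2 of E9.5 or -0.7 without array 3 of E10.5 for the later.

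Axin2, a scaffold of the complex that degrades beta-catenin and a feedback inhibitor, gave 1114, 888 and 1057 at E10.5, against 1070.0, 850.0 and 965 at E7.5. These overlapped, and the change was 0.08 ± 0.14 (adjusted p = 0.65, interval -0.22 to 0.38). The interval of Axin2 and that of Sp5 (-2.77 to -1.77) do not meet, but the difference between the genes was not itself tested. Nkd1, a feedback inhibitor that binds Dishevelled, changed by 0.52 ± 0.15 (interval 0.21 to 0.83).

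In the later set Axin2 fell. It gave 433 and 266 at E18.5, against 727 and 766 at E12.5, with 582 ± 89.0 at E14.5 and 459 ± 13.4 at E16.5 between, and fell by 1.08 ± 0.18 (adjusted p = 3.6e-05). Without array 2 of E18.5 its change was -0.75 and no longer 2-fold. Its second probe set changed by -1.19. Sp5 was not called over E18.5 against E12.5 (-0.51 ± 0.29, interval -1.13 to 0.11), but it had a low point between.

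Sp5 gave 16.8 and 18.7 at E16.5, against 116 and 140.0 at E14.5, and fell by 1.81 ± 0.29 (adjusted p = 0.00037). It then gave 72.0 and 65.3 at E18.5, a rise of 1.12 ± 0.29 over E16.5 (adjusted p = 0.012). The E16.5 arrays were below the 25th percentile of their arrays, and the 2 arrays of each stage lay close together. The rise lost its call without any 1 of the 4 arrays (adjusted p = 0.056 to 0.083). Sp5 had a single probe set. Nkd1 was lower at E18.5 than at E12.5 by less than 2-fold (206 ± 8.09 and 385 ± 19.7, -0.83 ± 0.18).

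**Figure D4:**
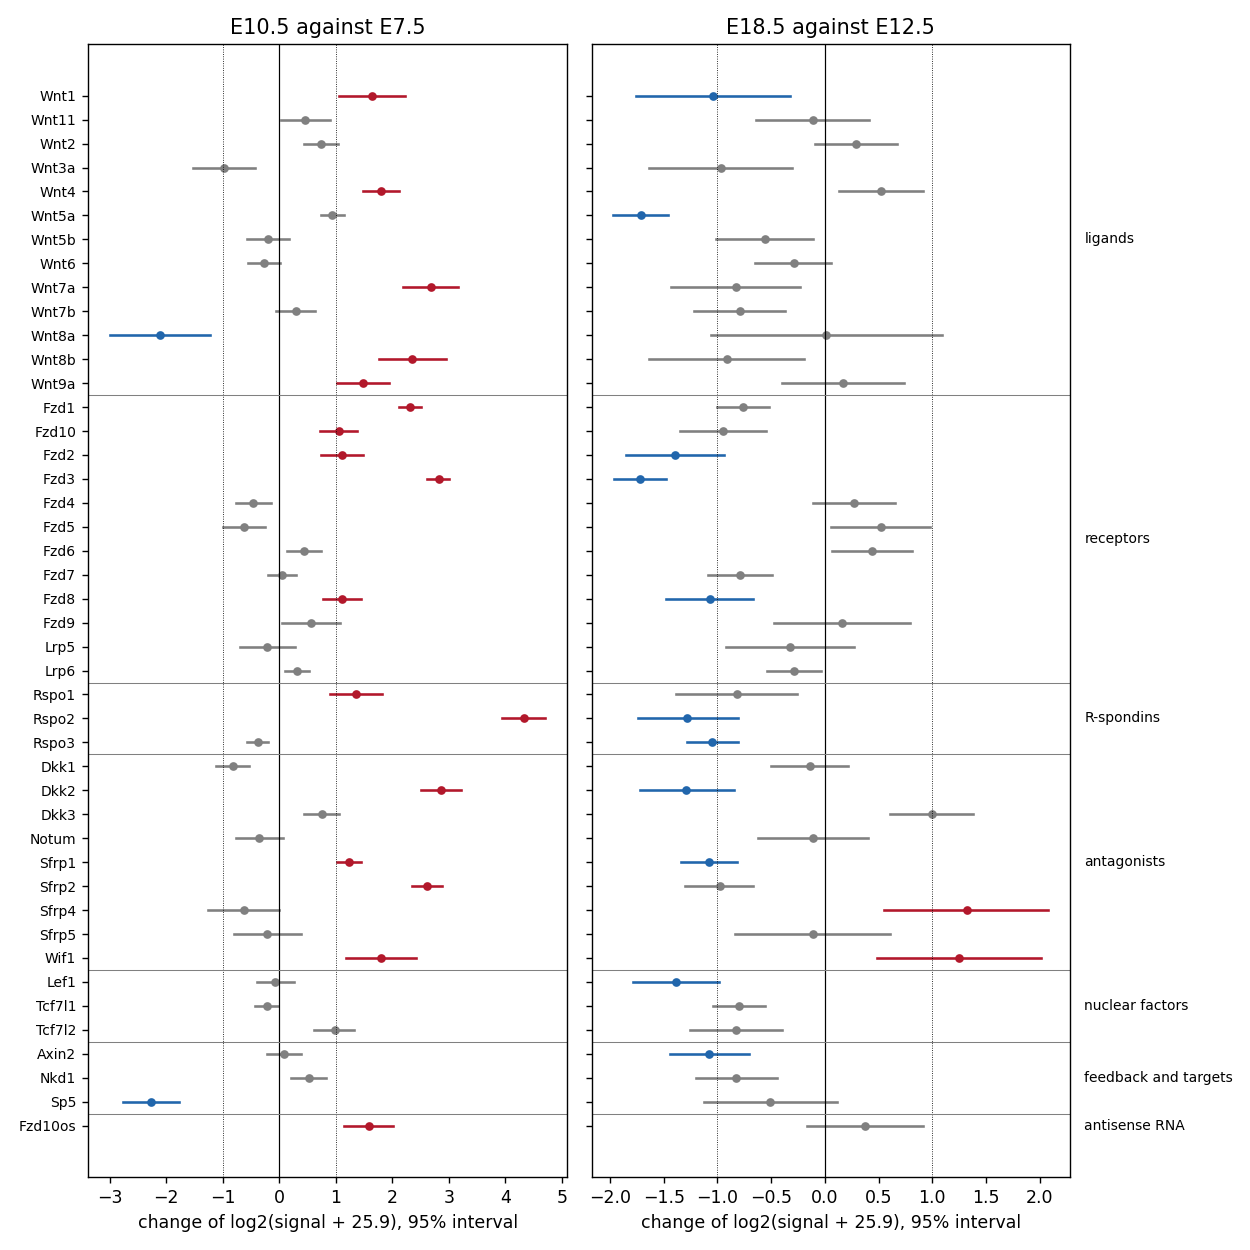
Change of log2(signal + 25.9) with its 95% interval for the 44 tested members, grouped by role, at E10.5 against E7.5 (left) and E18.5 against E12.5 (right, on its own scale), with red for called higher, blue for called lower and grey for not called. Dotted lines mark 2-fold. Rspo2 lies farthest right on the left, and Fzd3 and Wnt5a lie farthest left on the right.

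Tissue markers moved with the later falls too. At E18.5 against E12.5, 5 of 7 neural progenitor markers fell (summed signal 6377 to 6843 at E18.5 and 14431 to 14698 at E12.5), and 3 of 6 neuron markers fell (8943 to 10022 and 18285 to 18556). Over the same span all 5 epidermis markers rose (82714 to 85468 and 2134 to 2187). So did 4 of 4 liver markers (89534 to 91035 at E18.5 and 13862 to 14640 at E12.5) and 4 of 5 skeletal muscle markers (85107 to 91470 and 6961 to 7205). Their part in the falls of Wnt pathway genes was not tested.

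Other genes of the pathway were counted from lists of 55, of which 51 were tested. At E10.5 against E7.5, 12 of the 51 rose and 4 fell (31.4%, beside 23.5% of all genes). At E18.5 against E12.5, 2 of the 51 rose and 7 fell (17.6%). The background was 21.7% of all genes, with 15.2% higher and 6.44% lower. Of 5 other secreted antagonists, Sostdc1, which binds Lrp receptors, and Draxin, an axon guidance protein that also inhibits Wnt signalling, rose early by 2.87 ± 0.28 and 2.12 ± 0.18. Of 9 planar polarity genes 4 rose early, among them Vangl2, a core polarity protein, by 1.17 ± 0.10, and Vangl2 fell late by 1.51 ± 0.12. Of 9 nuclear cofactors Tle1, a corepressor of Tcf factors, rose early by 1.63 ± 0.13, and Tle1, Bcl9 and Pygo1 fell late. Tle1 gave means of 569 ± 59.9 at E18.5 and 1997 ± 4.76 at E12.5 (-1.77 ± 0.15, adjusted p = 1.1e-08).

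Of 10 tested genes for other co-receptors and receptor turnover, 1 rose early and 0 late, and none fell in either. The one was Lrp4, a relative of Lrp5 and Lrp6, with 1.19 ± 0.19 at E8.5 against E7.5 (adjusted p = 3.9e-05). Of 8 tested genes of the destruction complex and relay, Gsk3b, the kinase that marks beta-catenin for degradation, rose early (1.51 ± 0.12), and Dvl2, a Dishevelled protein, fell late by 1.37 ± 0.17. Ctnnb1, which encodes beta-catenin and is named for that role after its values were seen, was not called in any comparison, with stage means from 18042 ± 1377 at E18.5 to 27531 ± 302 at E8.5. Neither Porcn nor Wls, which add the lipid to Wnt proteins and carry them out of the cell, was called in the long comparisons.

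Among 8 tested targets outside the rule, 3 rose (Ccnd1, Dact1 and Nkd2) and 4 fell (Cdx1, Cdx2, Cdx4 and Myc) at E10.5 against E7.5. At E18.5 against E12.5, 2 rose (Cdx1 and Cdx2) and 1 fell (Dact1). Cdx1 and Cdx2 had their highest means at E7.5. Cdx1 averaged 1066 ± 124 there and 3.76 ± 3.39 at E10.5, and Cdx2 1524 ± 471 and 44.7 ± 37.1. Cdx4, a homeobox gene of the posterior embryo, had its highest mean at E8.5, as Wnt5b and Sfrp5 did. It gave means of 193 ± 14.9 at E7.5, 1120.0 ± 40.2 at E8.5, 171 ± 51.4 at E9.5 and 38.5 ± 10.2 at E10.5. It rose by 2.39 ± 0.26 at E8.5 and fell by 2.58 ± 0.26 at E9.5 (adjusted p = 3.2e-07 and 5.2e-07). Dact1, which binds Dishevelled, rose by 1.59 ± 0.08 early and fell by 1.52 ± 0.10 late. Nkd2, the relative of Nkd1, rose by 1.84 ± 0.24 early.

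Where a gene had more than 1 probe set, the others mostly moved the same way. Of the 68 called changes, 41 had another probe set, and of its 76 values 68 had the same direction and 8 the opposite. The 8 belong to Fzd10, Rspo2, Wnt7a, Wnt8b and Wnt9a, and in each the opposing probe set had means of at most 44.1 at the stages compared.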

How the data were processed

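Whole-embryo RNA was measured on 20 arrays at 8 stages. Each probe set has a linear intensity, the MAS5 signal that the authors computed and deposited, per the submitters' processing notes, with version and settings not given in the sources used here. The trimmed mean (lowest and highest 2% left out) was 500.0 on every array, so the authors had scaled them. There is no read depth here; precision is set by how many arrays a stage has.

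Of 45101 probe sets, 64 of them controls, the 34958 with 1 gene symbol were used, and 932 with several and 9211 with none were left out. Entrez identifiers of 34754 matched a RefSeq gene table, changing 0 symbols. The probe set with the highest mean log2 signal stood for a gene. The pseudocount of 25.9 was taken from the arrays (25th percentile of each, then the median). Genes had to exceed the array median on 2 or more arrays to be tested (14045, with 4149 left out). limma 3.58.1 in R 4.3.3 fitted a mean per stage over all arrays (lmFit, contrasts, eBayes with trend, 12 residual degrees of freedom before moderation), two-sided. The fit was tested on simulated data. Replicates are called biological in the design text, and p-values reflect only how these pools differ.

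The 9 comparisons were the 7 steps between stages, E10.5 against E7.5 and E18.5 against E12.5. Members, lists, tests and alternatives were chosen with earlier results of these data known. Full values are given, by rule, for the up to 4 largest called changes of each role in the long comparisons. Only genes whose arrays did not overlap were eligible there. The rule added the up to 3 largest called changes each way in every comparison, with no condition on overlap. It also added up to 3 called members of a list of other pathway genes. Others, such as Fzd10os and Dkk1, are named with their levels and some statistics. Same-numbered arrays within E7.5 to E10.5 deviated together weakly, with correlations of 0.03 to 0.28 (median 0.07). Differently numbered arrays of this set gave -0.18 to 0.1 (median -0.08). The numbers were not taken as pairs, and a fit with them as a block is given below.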

Additional observations from a re-analysis of the deposited data

How the results depend on the processing

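Of the 68 called changes, none reversed, and 884 of 976 values under the alternatives kept their call. In all, 30 changes were called under every alternative run, and 11 more lost the call only with a pseudocount 4 times larger. Calls lost were 31 with that pseudocount, 13 with quantile normalization, 11 with probe sets averaged, 7 with scaling by the 75th percentile and 2 with a pseudocount 4 times smaller. Members called at the 7 steps, named here by their later stage, numbered 19, 8, 2, 5, 0, 1 and 1 in order of age, with 19 at E10.5 against E7.5 and 13 at E18.5 against E12.5. With a pseudocount 4 times larger they were 10 at E8.5, 2 at E9.5, 0 at E10.5, 0 at E16.5, 0 at E18.5 and 12 at E10.5 against E7.5. All genes then gave 426 higher and 426 lower at E8.5, 148 and 118 at E9.5 and 180 and 29 at E10.5. They gave 401 and 12 at E16.5, 445 and 74 at E18.5, and 1399 and 738 at E10.5 against E7.5. With no minimum fold, members called were 17 at E9.5, 10 at E10.5, 15 at E12.5, 5 at E14.5, 7 at E16.5 and 5 at E18.5. In the long comparisons they were 32 at E10.5 against E7.5 and 30 at E18.5 against E12.5. All 14045 genes then gave 1341 higher and 968 lower at E9.5, 1680 and 960 at E10.5 and 3715 and 2951 at E12.5. They gave 918 and 544 at E14.5, 847 and 594 at E16.5 and 1029 and 1194 at E18.5. For the long comparisons all genes gave 4811 and 3339, and 3370 and 4095, in the same order. Quantile normalization gave 1 member at E10.5, 1 at E14.5 and 0 at E18.5. For all genes it gave 315 higher and 102 lower, 467 and 106, and 591 and 169 there. The mean of all probe sets gave 5 members at E9.5 and 1 at E10.5. For all genes it gave 243 higher and 203 lower, and 310 and 59. A pseudocount 4 times smaller gave 1 member at E14.5, beside 326 higher and 50 lower of all genes. No filter gave 2 members at E18.5, beside 574 and 117 of all genes. The larger pseudocount shrinks changes of dim genes, and no minimum fold drops a criterion, while the cause of the other shifts was not tested. Leaving out each array in turn gave 18 to 20, 7 to 9, 1 to 4 and 5 to 7 members at the steps up to E12.5. It gave 0 to 1, 1 to 2 and 0 to 0 members at the steps that follow. The long comparisons gave 17 to 22 at E10.5 against E7.5 and 13 to 14 at E18.5 against E12.5. The fit with the replicate number as a block gave the same counts of members in all 9 comparisons. Low signals, with no detection calls used here, limit what can be said of the 8 untested members, and 2 arrays a stage from E12.5 limit precision there.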
